A study of Homo sapiens with 24 samples.

Results

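Deep intron windows are short stretches of transcribed sequence that lie inside introns but away from the splice sites, and that were enriched when an RNA-binding protein was pulled down. They were taken from 6 lists of enriched windows, each window at most 100 bases long, mapped on hg38. A window belonged to the set when the feature type given with it was intron alone, and not intron at a splice site or near one. In these lists a window directly at a splice site is a type of its own, and up to 4 further windows on each side count as near it. The set held 6664 of the 225825 different windows in the 6 lists. Every listed window had already passed the enrichment threshold of its experiment, so the lists say where enrichment was found and not how introns in general behaved.

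The windows come from eCLIP of the human HEK293 line, which was derived from embryonic kidney. In eCLIP, RNA bound to a protein is fragmented and immunoprecipitated (IP), and its reads are set against an input library of the same lysate. The 24 libraries formed 12 groups of 2, an IP group and an input group for each of 6 experiments. SNRNP200 was mapped in whole cells without treatment, in whole cells with 500 µM arsenic, in the cytoplasmic fraction without treatment and in the cytoplasmic fraction with 500 µM arsenic. CAPRIN and G3BP1 were mapped without treatment. The labels give no genotype change, no fraction for CAPRIN and G3BP1, no duration of treatment and no family member for CAPRIN. Their protocol text is the same for every sample and names a single antibody, so the protein in each experiment is the one in the sample's title. Likewise, the general treatment field names arsenic for every sample, and the groups follow the field of each sample that gives no treatment for the untreated ones. Whether the 2 replicates of a group were separate cultures is not stated, and the p-values measure only the spread between these samples. The lists hold no RNA levels outside enriched windows, and markers of the cell line were not checked.

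SNRNP200, also called Brr2, is an RNA helicase in the U5 particle of the spliceosome. It separates U6 from U4 when the spliceosome is activated, and it stays with the machinery through splicing. Its usual place on a precursor mRNA is near the splice sites, while the interior of an intron is normally removed and degraded in the nucleus. CAPRIN1 and G3BP1 are cytoplasmic proteins that bind each other and help to build stress granules, assemblies of untranslated mRNA and protein that arsenic can induce. Introns also hold other transcription units: snoRNA and miRNA genes, tRNA genes, promoters of alternative transcripts, and processed copies of small nuclear RNAs and of ribosomal protein mRNAs. A window called intronic for its host gene may therefore cover RNA of another kind.

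Some of the deep intron windows lay on such units, and sequences are shown here for those where RefSeq has one. Mature miRNAs of RefSeq (GRCh38.p14) lay wholly inside 3 of the windows. The capitals mark the seed, bases 2 to 8.
hsa-miR-647: gUGGCUGCacucacuuccuuc
hsa-miR-3654: gACUGGACaagcugaggaa
hsa-miR-222-3p: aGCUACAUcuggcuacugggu

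The miR-647 window lay in UCKL1 (chr20:63942671-63942766, minus strand) and was listed for SNRNP200 in untreated whole cells, with 37 IP and 5 input reads and replicate log2 enrichments of 2.7 and 3.67. The miR-3654 window lay in CHCHD3 (chr7:133034809-133034908, minus strand) and was listed for CAPRIN at 4.10 and 4.35, with 31 IP and 4 input reads. It also lay inside the RefSeq pseudogene LOC729998, in a run of 7 touching CAPRIN windows, so which of these RNAs it covered cannot be told apart. The miR-222-3p window lay in MIR222HG (chrX:45746965-45747064, minus strand) and was listed for CAPRIN at 5.19 and 5.73, with 44 IP and 2 input reads. The 3 seeds differed from each other, and no miRNA was covered in more than 1 list.

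Transcription starts were the other kind of unit with a sequence to show. Of the deep intron windows searched, 56 lay wholly within the RefSeq promoter stretch of a gene. This stretch is 300 bases around the annotated start, most of it upstream. Of the 56, 45 were on the strand of that promoter. Their median GC content was 68.2%, against medians of 45% to 53.3% over all deep intron windows of each list. The sequences of 5 of them are given on the strand of the transcript, without marked letters; they were chosen after their values were seen, for being strongest in a list or present in several lists.
SLC11A2 chr12:51026484-51026582 minus: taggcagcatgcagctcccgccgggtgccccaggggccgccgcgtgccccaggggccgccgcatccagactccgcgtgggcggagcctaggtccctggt
BICRA chr19:47608909-47609008 plus: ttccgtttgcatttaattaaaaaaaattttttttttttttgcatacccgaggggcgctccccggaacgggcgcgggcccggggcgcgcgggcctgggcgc
URGCP chr7:43906597-43906694 minus: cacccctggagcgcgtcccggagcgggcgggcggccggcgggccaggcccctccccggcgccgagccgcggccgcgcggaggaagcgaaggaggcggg
HMGB3 chrX:150983235-150983334 plus: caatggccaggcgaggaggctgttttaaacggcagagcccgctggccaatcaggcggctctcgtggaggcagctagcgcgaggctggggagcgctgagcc
MCM7 chr7:100100679-100100763 minus: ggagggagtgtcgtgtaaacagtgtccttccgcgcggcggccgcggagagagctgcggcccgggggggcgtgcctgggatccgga

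The SLC11A2 window, in the gene of an iron transporter, was listed in 3 experiments: at log2 enrichments of 2.79 and 4.03 for SNRNP200 in the untreated cytoplasm, 3.43 and 4.47 for CAPRIN, and 2.55 and 3.17 for G3BP1. The BICRA window carried the gene name CTD-2571L23.8 in the list and was a G3BP1 window at 7.29 and 8.32, with 392 IP and 5 input reads. The URGCP window was listed for CAPRIN at 6.82 and 8.17 with 1142 IP and 6 input reads. The HMGB3 window was listed in the arsenic-treated cytoplasm at 4.0 and 4.36 and for CAPRIN at 3.37 and 4.43. The MCM7 window, in the gene of a replication helicase subunit, was listed in untreated whole cells at 2.02 and 4.62 with 90 IP reads, and with arsenic its mean was 3.93. Promoter windows numbered 31 and 24 in the untreated and arsenic whole cell lists, 11 for CAPRIN, 5 for G3BP1 and 1 in each cytoplasmic list.

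Deep introns were a small part of every list. Over the full lists the share was smallest for SNRNP200 in the cytoplasm and largest for CAPRIN and G3BP1. In whole cells they made up 4404 of 182066 windows without arsenic (2.42%, exact 95% binomial interval 2.35 to 2.49) and 2501 of 117690 with it (2.13%, 2.04 to 2.21). In the cytoplasm they made up 33 of 4182 (0.789%, 0.544 to 1.11) and 20 of 6773 (0.295%, 0.180 to 0.456). They made up 764 of 15831 CAPRIN windows (4.83%, 4.50 to 5.17) and 186 of 3023 G3BP1 windows (6.15%, 5.32 to 7.07). These intervals cover counting error only. Each list pools its replicates, so a share has no replicate spread and the differences between lists were not tested. The G3BP1 share includes a set of windows with up to 3 replicates, although the labels give 2. Among the 3023 windows of lowest q in each list, untreated whole cells were at 0.695%, below the untreated cytoplasm at 0.827%. The depth of each library is unknown, since library totals were not used here.

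**Figure D1:**
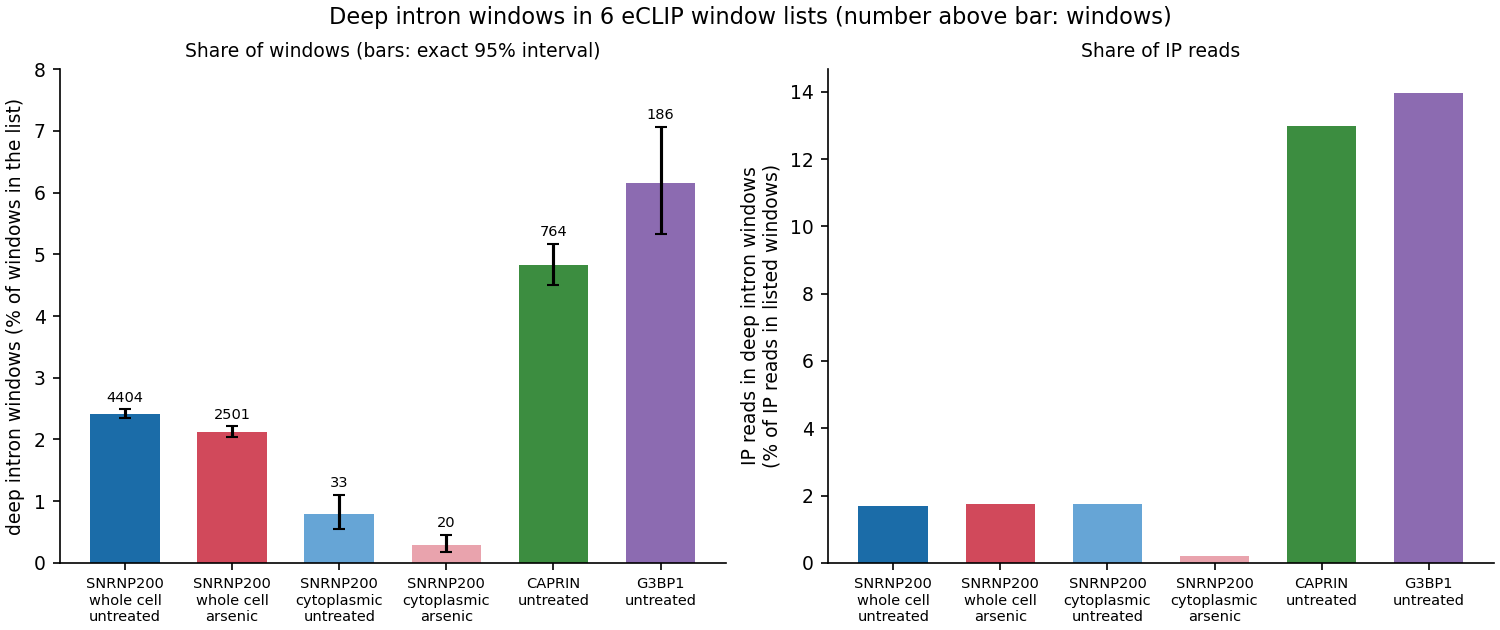
Share of deep intron windows in each of the 6 lists, in percent, by windows on the left (error bars: exact 95% binomial intervals) and by IP reads on the right. By windows the shares run from 0.295% in the arsenic-treated cytoplasm to 6.15% for G3BP1, and by IP reads CAPRIN and G3BP1 reach 13% and 14.0%.

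Counted by IP reads, the contrast between the proteins was wider. Deep introns held 82530 of the 635845 IP reads in listed CAPRIN windows (13%) and 26072 of 186540 for G3BP1 (14.0%). For SNRNP200 they held 1.68% and 1.76% in whole cells, 1.74% in the untreated cytoplasm and 0.214% in the arsenic-treated cytoplasm. Outside whole cells the windows with most reads carried a large part of this signal. The top 10 held 44.4% of the deep intron IP reads for CAPRIN and 58.4% for G3BP1. They held 81.9% and 69.2% in the cytoplasm, and 5.45% and 11.5% in whole cells. The cytoplasmic sets held only 33 and 20 windows, and the whole cell sets 4404 and 2501. Shares of the top 10 windows therefore also depend on the size of the set.

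The lists also differed in what surrounded a deep intron window. In whole cells most host genes also had a window at a splice site: 96.7% of the 1703 genes without arsenic, against 85.9% of all 9052 genes in that list, and 93.8% of the 1110 with it, against 82.5% of 8202. For CAPRIN this held for 0.696% of 575 genes, against 2.98% of all 4363, and for G3BP1 for 1.34% of 149 genes, against 3.0% of 1232. The cytoplasmic lists had no such gene, against 0.165% and 0.364% of all their genes. The split thus lay between the whole cell lists and all the others, SNRNP200 in the cytoplasm included. It was one of the whole lists and not of the deep intron genes alone. Conversely, deep introns were the only listed windows of 70.8% of the CAPRIN genes, 87.2% of the G3BP1 genes and 75.8% of the 33 genes in the untreated cytoplasm. The same shares were 1.23% and 2.97% in whole cells and 46.2% of 13 genes in the arsenic-treated cytoplasm. The lists also differed in windows per gene, with 182066 windows over 9052 genes in untreated whole cells. CAPRIN had 15831 over 4363 genes and G3BP1 3023 over 1232. Genes with few windows more easily have only 1 type, and no such share was computed for other types.

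Isolation in the genome followed the same split. A window with no other listed window of any type within 1 kb on its strand was called alone. Alone were 457 of the deep intron windows in untreated whole cells (10.4%) and 451 with arsenic (18.0%), but 606 of the CAPRIN windows (79.3%), 150 of the G3BP1 windows (80.6%) and all 33 of the untreated cytoplasm (exact 95% interval from 89.4%). In the arsenic-treated cytoplasm 8 of 20 were alone. Coding sequence windows of the same lists were alone in 12% and 18.4% for whole cells, 34.5% and 35.2% in the cytoplasm, 32.3% for CAPRIN and 37.1% for G3BP1. Longer or sparser lists change this measure by themselves, so the comparison with coding windows stays within a list.

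Position within the intron was read from the number of the window, counted along the genome from the lower-coordinate end of the stretch of deep intron. The median number was 8 and 12 for whole cells, 65 and 92 in the cytoplasm, 76 for CAPRIN and 62 for G3BP1. More than 100 windows from that end lay 8.63% and 13.9% of the whole cell windows, 39.4% and 45% of the cytoplasmic ones, 43.5% of the CAPRIN windows and 36.0% of the G3BP1 windows. On the plus strand the low-numbered end is the 5′ side, on the minus strand the 3′ side. Without arsenic, 45.3% of the plus-strand and 33.6% of the minus-strand whole cell windows were among the first 5 numbers, and with arsenic 40% and 22.5% were. The SNRNP200 whole cell windows thus lay more often close to the 5′ side of the stretch than close to its 3′ side, which was not tested. The highest number of all, 3075, was that of a CAPRIN window, whose distance from the other end is not given by the number.

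**Figure D2:**
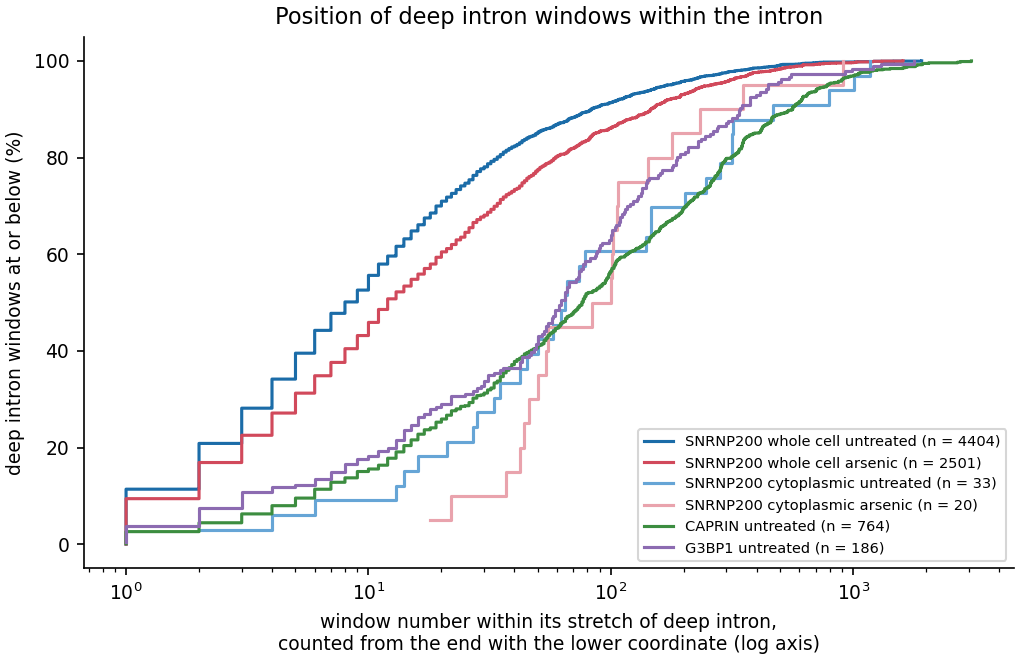
Cumulative share of deep intron windows by window number counted from the lower-coordinate end of the stretch of deep intron (log axis), with 1 line for each list. The whole cell lines rise early, with medians at 8 and 12, while the lines of CAPRIN, G3BP1 and the cytoplasm have medians between 62 and 92.

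Median enrichment in deep introns was lower in the SNRNP200 lists than for CAPRIN and G3BP1. The median log2 enrichment of the deep intron windows was 3.04 and 3.30 for whole cells, 3.83 and 3.54 in the cytoplasm, 4.67 for CAPRIN and 5.64 for G3BP1. Each list was normalised on its own, so a level is best read beside the other types in the same list. In whole cells the deep intron medians were below those at splice sites, 3.84 and 3.94, and close to those of coding sequence, 3.30 and 3.32. For CAPRIN and G3BP1 they were above those of coding sequence, 3.45 and 4.03. In the untreated cytoplasm the deep intron median was also above that of coding sequence, 2.89. Values of 6 or more were reached by 144 CAPRIN windows (18.8%) and by 56 of the 140 G3BP1 windows with 2 replicate values (40%), against 2.12% and 5.19% of coding windows. In whole cells 8 and 15 windows reached it. In the untreated cytoplasm 5 of the 33 did (15.2%), against 0.236% of coding windows, and in the arsenic-treated cytoplasm 0 of 20. The median range between the replicates of a window was 0.49 to 0.83 over the 6 lists.

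Many of the high values rested on input windows without a read. Of the CAPRIN deep intron windows 54.6% had no input read, against 34.1% of all CAPRIN windows, and for G3BP1 these shares were 39.8% and 8.73%. In whole cells they were 8.92% and 12.1%, close to the 8.36% and 10.4% of all windows. In the untreated cytoplasm they were 27.3% of the deep intron windows and 12.1% of all, and with arsenic none of the 20 and 0.0148% of all. The sources used here do not say how an input of 0 reads entered the log2 values, so such values order windows only roughly.

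In whole cells the genes with most deep intron windows were members of the NBPF family, which arose by repeated duplication on chromosome 1 and encodes many near-identical repeats. NBPF20 had 163 windows without arsenic and 122 with it, NBPF19 had 107 and 72, NBPF14 had 90 and 63, and NBPF26 had 22 and 16. Together 8 NBPF genes held 8.83% of the deep intron windows without arsenic, and 6 held 11% with it. The other 4 lists had none. Reads from such copies cannot be assigned to 1 locus with certainty, so the split among the family members is uncertain. RP11-345J4.11 on chromosome 16 (25 and 22), MTA1, a subunit of the NuRD chromatin complex (23 and 11), ANKRD36C (22 and 13) and PHGDH, the entry enzyme of serine synthesis (21 and 15), came next.

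In whole cells 84.2% of the runs of touching deep intron windows were 1 window long, with and without arsenic. Runs were built from deep intron windows only, so touching windows of other types do not count. Only 10.4% of the deep intron windows without arsenic and 18.0% with it had no listed window of any type within 1 kb. The longest run without arsenic was in FAM120B, with 8 windows over 797 bases and 281 IP reads at log2 enrichments of 1.66 to 3.83. With arsenic it was in DPH7, a diphthamide synthesis gene, with 7 windows over 696 bases at 3.32 to 4.56. NSUN5P2 had runs of 6 and 5 windows in the 2 lists, starting at the same base. HNRNPK and PTBP1, genes of hnRNP proteins that regulate splicing, each had a run of 5 windows without arsenic.

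Genes of splicing regulators were well represented. Among genes with any listed window, 18.8% had a deep intron window in untreated whole cells and 13.5% with arsenic. Of the SR and hnRNP protein genes 22 of 43 had one (51.2%) without arsenic and 18 of 40 (45%) with it. Of the genes known for regulated intron retention 19 of 31 (61.3%) and 13 of 31 (41.9%) had one, and of the core spliceosome protein genes 19 of 50 (38%) and 12 of 50 (24%). Genes of cytosolic ribosomal proteins were near the general share with 16 of 79 (20.3%) without arsenic, and had 6 of 79 (7.59%) with it. Genes that host snoRNAs in their introns had 5 and 7 of 34, and miRNA host genes 6 of 17 and 4 of 16. These counts are descriptive, since genes differ in length, expression and number of introns and the lists were not tested.

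Within these lists, PTBP1, a repressor of exon inclusion, had 13 deep intron windows without arsenic and 4 with it. HNRNPK had 6 and 5, and SRSF11 5 and 3. LUC7L2, a U1 snRNP partner, had 7 and 2, and SART1, a protein of the tri-snRNP that SNRNP200 is part of, had 4 and 4. SF3B3 and SF3A2 of the U2 snRNP had 7 and 6 without arsenic. The window at chr1:70222738-70222837 in SRSF11 was among the strongest by reads: 357 IP and 40 input reads without arsenic, at 3.57 and 5.21, and 1208 and 37 with it, at 3.55 and 6.68. The ranges of its replicates overlapped. SNRNP200's own gene had 2 windows without arsenic, at 3.06 and 3.68, and CAPRIN1 and G3BP1 had 1 each. The gene list made for the immunoprecipitated proteins held 5 genes, more than the proteins named in the sample titles. With arsenic none of the 5 had one.

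Copies of spliceosomal snRNAs in the introns of other genes gave some of the strongest whole cell windows. RefSeq entries named for U2, U4, U5 or U6 copies overlapped 6 deep intron windows without arsenic and 14 with it. They held 2.49% and 7.58% of the deep intron IP reads, and their median log2 enrichment was 5.17 and 5.18, against 3.04 and 3.30 for all. Such copies were not particular to SNRNP200, since they also lay under 3 G3BP1 deep intron windows. These were 1.61% of the G3BP1 set, against 0.136% and 0.56% in whole cells, and held 0.441% of its IP reads. CAPRIN and both cytoplasmic lists had none. This grouping by RefSeq name was made after values were seen. Of the 15 whole cell windows in all, 5 were in both whole cell lists, 1 only without arsenic and 9 only with it. RefSeq positions here carry no strand, and reads could also stem from the functional snRNA genes or from other copies, which cannot be told apart here.

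The window over the U6 copy RNU6-10P in CDK6 (chr7:92701730-92701829) had the most IP reads of all whole cell deep intron windows, 2701 without arsenic and 4816 with it. Its replicates were 4.75 and 6.07 without and 5.36 and 5.47 with arsenic, so the groups overlapped and the difference was 0.00 (SE 0.86, limma adjusted p = 0.999947). The window over the U4 copy RNU4-59P in EVI5 was higher, at 5.6 and 9.82 without and 8.20 and 9.37 with arsenic. The window over the U5 copy RNU5E-2P in LYST, a regulator of lysosome size, was at 1.94 and 5.08 without and 6.60 and 7.97 with arsenic, with 175 and 678 IP reads. The replicates of LYST did not overlap, and its difference of 3.77 (SE 0.99) was the largest of all shared deep intron windows, with a limma adjusted p of 0.99977. The MFSD11 window in both lists, over the U6 copy RNU6-97P, was at a mean of 4.66 without and 3.60 with arsenic. It had 28 and 25 IP reads. A touching MFSD11 window over the same copy was listed only with arsenic, at 5.46 and 5.84 with 184 IP reads. Those listed only with arsenic included ARNT at 5.52 and 5.81, METTL9 with 390 IP reads at 4.84 in both replicates, and NME5 at 4.81 and 5.73; the copy in CAB39 was listed only without it, at 4.24 and 5.63.

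The first comparison asks how arsenic changed SNRNP200 contacts in whole cells. Both lists held 1117 of the same deep intron windows, 25.4% of those without arsenic and 44.7% of those with it. Over windows of all types the overlap was larger, at 50.1% and 77.4%. In the shared windows limma called 0 of the 1117 deep intron windows at an adjusted p under 0.05, and 0% of all 91143 shared windows. At an unadjusted p under 0.05 there were 44 deep intron windows and 4076 windows of any type, and limma with a variance trend also called 0. The median difference of the deep intron windows, arsenic minus untreated, was 0.07, against -0.01 over all shared windows, and 593 of 1117 were positive. Replicates did not overlap and were higher with arsenic in 196 (17.5%), against 15.6% of all windows, and lower in 172 (15.4%), against 16.9%. These shares lie near the background.

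**Figure D3:**
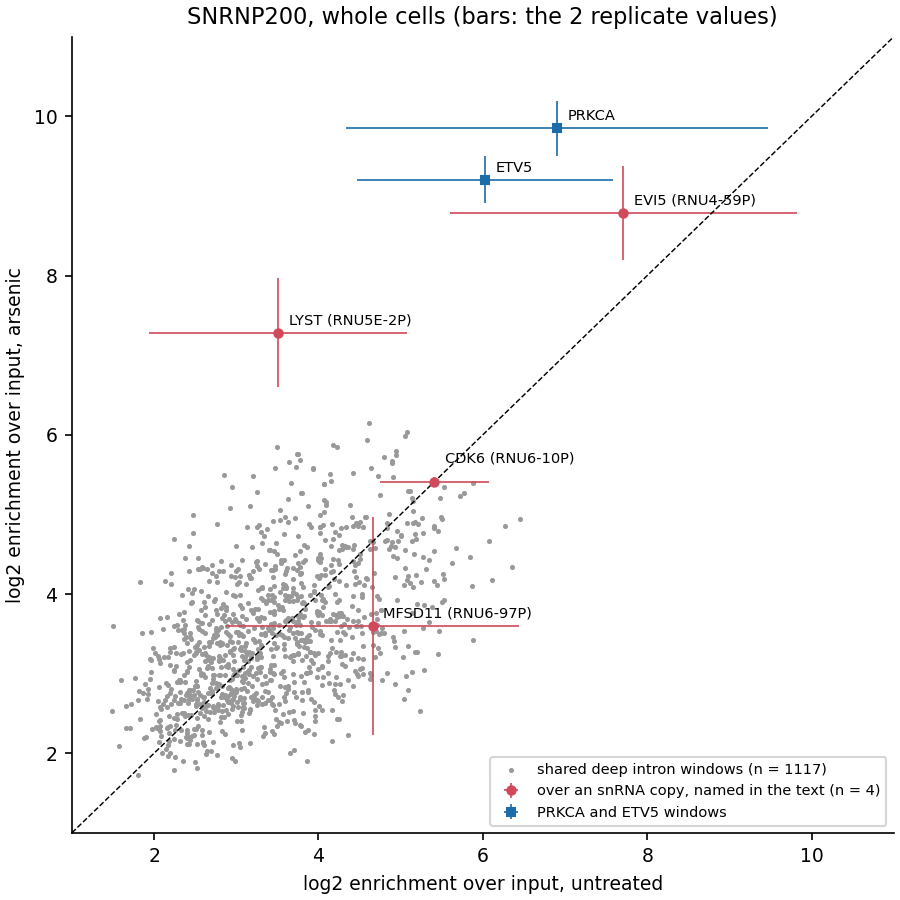
Mean log2 enrichment of the 1117 shared deep intron windows, SNRNP200 in whole cells, untreated on the x axis and with arsenic on the y axis. Grey points are all shared windows, red ones the 4 named windows over an snRNA copy and blue ones PRKCA and ETV5, with bars from the lower to the higher replicate. The median difference is 0.07, and LYST, ETV5 and PRKCA have the largest positive ones.

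The largest differences were still wide in their error, with a median SE of 0.86 over the shared deep intron windows. After LYST came ETV5, a transcription factor of the ETS family, with replicates of 4.47 and 7.59 without and 8.91 and 9.50 with arsenic (difference 3.17, SE 0.97), and PRKCA, a protein kinase C, with 4.34 and 9.47 without and 9.50 and 10.20 with arsenic (difference 2.94, SE 1.17). CEP43 and GUSBP11 differed by 2.52 and 2.45. The largest negative differences were -2.36 in NBPF26, -2.24 in WDR5, a histone methylation scaffold, -2.21 in LMNB2, a lamin, -2.14 in NBPF20 and -2.12 in ADARB1, an RNA editing enzyme. The replicates of the 5 named positive windows and of the 5 negative ones did not overlap between the groups. They were chosen for the size of their difference, which makes such separation likely. Over all 91143 shared windows, 15.6% were higher and 16.9% lower with arsenic without overlap. None of the named windows passed limma (limma adjusted p = 0.99977 for each).

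Many genes had deep intron windows in 1 of the 2 whole cell lists. A window in 1 list has no value in the other and entered no test. In all, 782 genes had such windows in both lists, 921 only without and 328 only with it. Of the 328, all but 17 had some window in the untreated list, and of the 921, all but 36 had one in the arsenic list. Fewer windows with arsenic were found in 1293 genes, more in 467 and the same number in 271, while the whole list was shorter too. Genes with more windows included VEGFA, an angiogenic growth factor (12 without and 19 with arsenic), DTX2P1-UPK3BP1-PMS2P11 (2 and 17) and CD81, a tetraspanin (15 and 17). Named after their values were seen, KIF1A had 3 and 14, MLXIP 0 and 10, BBC3, a p53 target that promotes apoptosis, 3 and 11, ATF3, a transcription factor of the stress response, 1 and 6, and STC2 0 and 6. Counted over windows of all types, ATF3 had 11 and 44, BBC3 9 and 23 and STC2 18 and 26, while KIF1A had 43 and 34 and MLXIP 42 and 34. Genes chosen in the same way with fewer windows were UHRF1 (10 and 1), BCOR (10 and 0), CLASRP (14 and 2) and DDX12P (15 and 1). Their windows of all types were fewer too, with 71 and 43, 122 and 58, 110 and 61, and 128 and 50. How much of each gene's RNA was present was not measured here, and its part in these counts was not tested.

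In the untreated cytoplasm the 33 deep intron windows formed a group unlike the other windows of that list. They lay in 33 genes when windows of overlapping genes are counted for each, all were alone within 1 kb, and 81.8% were alone within 10 kb. PRKCA and ETV5 took 30.4% and 22.6% of their IP reads. Of the 33, 22 (66.7%) were listed for CAPRIN at the same position, against 32.8% of all windows of the list, and 16 (48.5%) in whole cells with arsenic, against 9.78%. In the untreated whole cell list were 2 of them (6.06%), PRKCA and ETV5, against 15.6% of all windows, and in the G3BP1 list 2, SLC11A2 and PARD3, against 10.0%. These overlaps of lists are descriptions and were not tested.

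The windows shared with CAPRIN were the stronger ones. The 22 windows had a median log2 enrichment of 4.77 in the cytoplasm and held 2963 IP reads, and 15 of them were also in the arsenic whole cell list. The 11 others had a median of 2.85 and 329 reads, and 1 of them was in the arsenic whole cell list. In the CAPRIN list the same 22 windows lay between 2.71 and 12.93, with a median of 9.48, against 4.67 for all CAPRIN deep intron windows. The lists were normalised separately. Among the 11 others were MAGI3, a membrane scaffold, at 3.11 and 3.95, FBXL14, a ubiquitin ligase subunit, at 3.84 and 4.10, and a pair of windows in DUXAP9.

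The windows found in 3 or more lists were few and not of 1 kind. Of the 6664 windows 5454 were in 1 list, 1179 in 2, 28 in 3 and 3 in 4, and none was in 5 or 6. The commonest set of 3 was arsenic whole cell, untreated cytoplasm and CAPRIN, with 13 windows. Untreated and arsenic whole cell with CAPRIN followed with 8. Of the 31 recurrent windows 28 were in the CAPRIN list, 27 in the arsenic whole cell list, 18 in the untreated cytoplasm, 15 in untreated whole cells, 5 in the arsenic-treated cytoplasm and 3 in the G3BP1 list. They held 88.6% of the deep intron IP reads of the untreated cytoplasm and 29.3% of those for CAPRIN. Of the 28 in the CAPRIN list, 23 had at most 5 input reads. All 18 in the untreated cytoplasm were alone within 1 kb, as were 21 of 27 in arsenic whole cells, 17 of 28 for CAPRIN, 6 of 15 in untreated whole cells and 2 of 5 in the arsenic-treated cytoplasm. RefSeq pseudogenes lay under 5 of the 31, 2 in CHCHD3 and 1 each in FAM172A, RBFOX2 and SLC35F1, with 2 to 32 input reads and means of 1.70 to 6.50.

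PRKCA and ETV5 were each in 4 lists. The PRKCA window (chr17:66757027-66757126, plus strand), number 139 in its stretch of deep intron, had 600 IP and 2 input reads in untreated whole cells, 659 and 0 with arsenic, 1000 and 5 in the untreated cytoplasm and 3427 and 0 for CAPRIN. Its replicates were 7.41 and 7.46 in the cytoplasm and 12.42 and 13.44 for CAPRIN. The ETV5 window (chr3:186107741-186107839, minus strand) had 502, 778, 743 and 5691 IP reads in these 4 experiments, on 1, 0, 3 and 0 input reads. Its replicates were 6.48 and 7.49 in the cytoplasm and 12.06 and 13.05 for CAPRIN. Both windows were thus nearly free of input reads in every experiment that listed them. The SLC35F1 window, the other one in 4 lists, lay over RPL29P4, a copy of a ribosomal protein mRNA, and had means of 3.86, 1.90, 3.56 and 4.76 in untreated whole cells, arsenic whole cells, arsenic-treated cytoplasm and CAPRIN.

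Several more windows repeated that pattern without untreated whole cells. NFIA, a transcription factor, was at a mean of 7.35 in arsenic whole cells, 7.79 in the untreated cytoplasm and 12.03 for CAPRIN. ITFG1 was at 7.35, 5.29 and 11.58, FRAS1, an extracellular matrix protein, at 6.27, 5.11 and 11.36, and LGR5, a receptor for R-spondins, at 7.18, 5.31 and 10.90. KRT19, a keratin, was at 7.67, 6.37 and 10.18, HNRNPM at 6.51, 6.37 and 9.89, and NELL2 at 7.30, 5.81 and 9.79. The CAPRIN value was the highest of the 3 in each of these 7 genes, on a scale set separately for each list. None of these 7 windows was listed in untreated whole cells or for G3BP1. The PARD3 window, in a cell polarity gene, was listed at 2.64 in the untreated cytoplasm, 4.96 for CAPRIN and 6.07 for G3BP1.

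**Figure D4:**
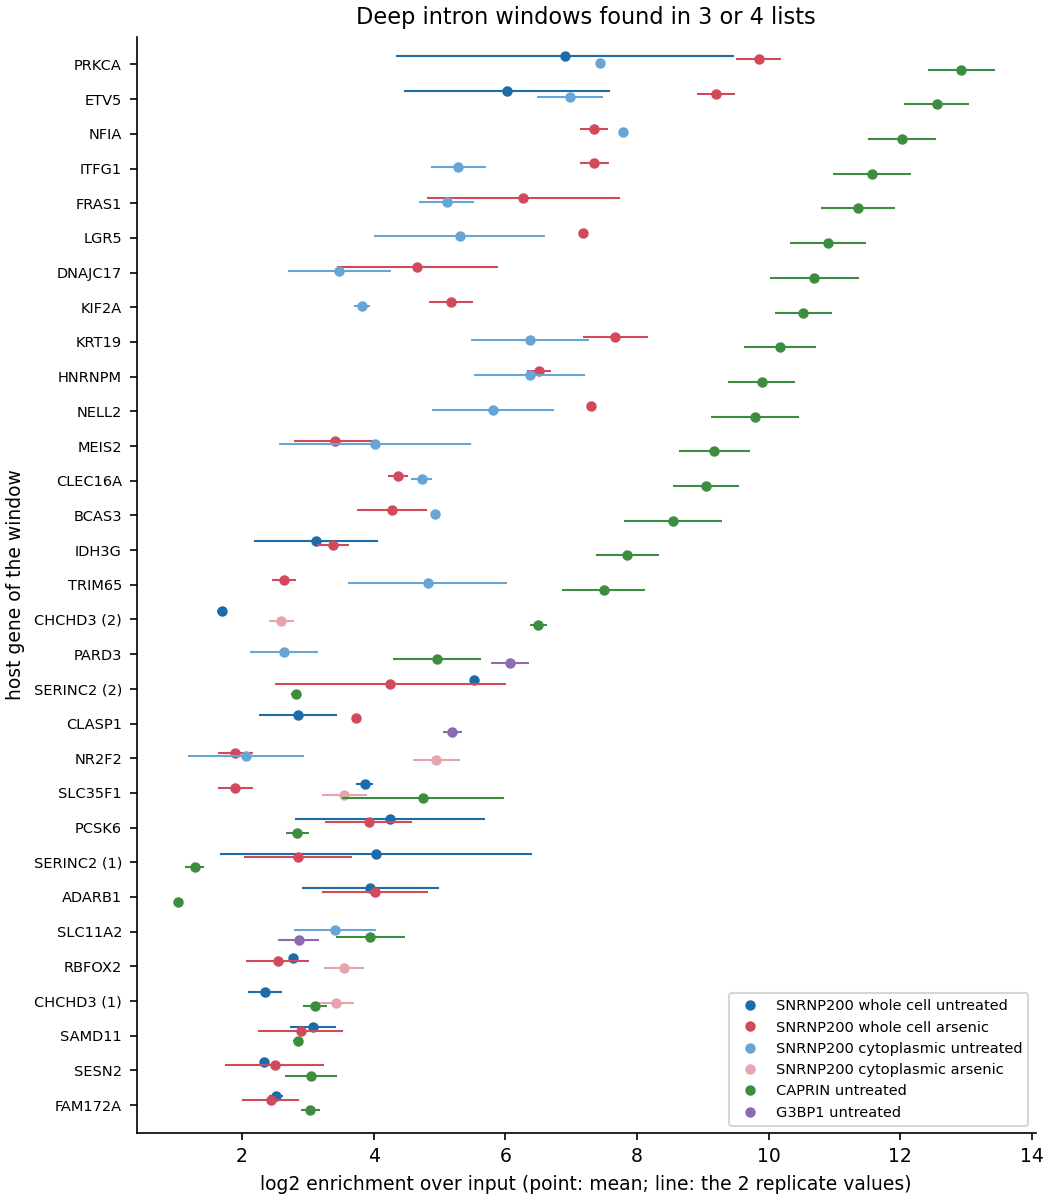
Mean log2 enrichment of the deep intron windows found in 3 or more lists, 1 row per window named by its host gene, with a point at the mean for each list that holds it and a line from the lower to the higher replicate. The CAPRIN marks reach 12.93, and the marks of the untreated cytoplasm lie between 2.07 and 7.79. The G3BP1 mark of CLASP1 is from the set with up to 3 replicates.

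At the level of genes, 1587 had deep intron windows in 1 list, 822 in 2, 94 in 3, 15 in 4 and 2 in 5, and none in all 6. The genes in 5 lists were AMBRA1, a regulator of autophagy, absent from the untreated cytoplasm, and MAGI3, absent from the arsenic-treated cytoplasm. AMBRA1 had 1 window without and 3 with arsenic in whole cells, 1 in the cytoplasm, 1 for CAPRIN and 2 for G3BP1. In each list at least 1 of its windows lay over the pseudogene RPS10P19, and only 1 of the 2 for G3BP1 did not. The windows of MAGI3 in both whole cell lists and for CAPRIN lay over the pseudogene LOC100421402, while its single windows in the untreated cytoplasm and for G3BP1 did not.

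The second comparison, arsenic in the cytoplasm, had little to work with in deep introns. The 20 windows with arsenic and the 33 without shared 1 window, in NR2F2, a nuclear receptor gene. Its replicates were 1.19 and 2.95 without and 4.60 and 5.31 with arsenic, a difference of 2.89 (SE 1.20, limma adjusted p = 0.154). The replicates did not overlap. Over all 1065 shared windows, 71.4% were higher with arsenic without overlap and 0.751% were lower, and the median difference was 2.00. Limma called 0 of the 1065 (0%), with 312 at an unadjusted p under 0.05. With a variance trend it called 127, all higher with arsenic, and NR2F2 was not among them. NR2F2 had 6 of the 20 windows with arsenic and 1 of the 33 without. The 6 lay between bases 96330906 and 96332289 of chromosome 15. An NR2F2 window of untreated whole cells, at 96332488-96332586, lay in a RefSeq promoter stretch of the gene. Whether the cytoplasmic windows cover RNA of another NR2F2 transcript was not tested.

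The 20 windows with arsenic lay partly over copies of other transcripts. RefSeq pseudogenes overlapped 9 of them (45%), which held 41.0% of the deep intron IP reads, against 1.48% to 11.4% of the deep intron windows in the other 5 lists. Of the 9, 4 lay over copies of ribosomal protein mRNAs: RPS10P19 in AMBRA1, RPL29P4 in SLC35F1 and RPL41P3 in RBFOX2 were among them. Another 4 lay in CHCHD3 over LOC729998, with 20 to 61 IP reads and means of 2.60 to 4.09. Over all 20 windows the median input was 15 reads, against 1 for the deep intron windows of the untreated cytoplasm. This was not particular to deep introns: 0.0148% of all windows in the arsenic-treated list had no input read, against 12.1% in the untreated one. The window with most reads, 102 IP and 42 input, was in LARP4 over the snoRNA SNORD133, at 2.7 and 6.75.

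Against whole cells, the cytoplasmic deep intron windows that could be compared numbered 2 without and 4 with arsenic. Without arsenic, cytoplasm minus whole cell was 0.96 in ETV5 and 0.53 in PRKCA (limma adjusted p = 0.654 and 0.859), with overlapping replicates in both. Over all 651 shared windows the replicates did not overlap and were higher in the cytoplasm in 29.8% and lower in 21.2%, and limma called 0% of them, with 114 at an unadjusted p under 0.05. With arsenic the difference was 3.05 in NR2F2, 2.00 in AMBRA1, 1.66 in SLC35F1 and 1.01 in RBFOX2, and the lowest limma adjusted p was 0.232. All 4 were higher in the cytoplasm without overlap of the replicates, as were 60.1% of all 882 shared windows, while 1.93% were lower without overlap. The median difference of the 882 was 1.36, and limma called 0% of them, with 166 at an unadjusted p under 0.05. The difference of the arsenic effect between the fractions could be tested in 97 windows in all 4 SNRNP200 lists, and none of them was a deep intron window. Limma called 0 of the 97, with 22 at an unadjusted p under 0.05.

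CAPRIN deep intron windows were spread over 575 genes, 80.3% of which had a single one. The gene with most, CHCHD3, a mitochondrial inner membrane protein, and MAN1B1, a mannosidase, had 11 windows each, followed by TBCD with 9, DOCK1 with 8, GRAMD4 with 7 and MAGI3 with 6. All 11 windows of CHCHD3 lay over the pseudogene LOC729998 and all 6 of MAGI3 over LOC100421402. Runs of touching windows were longest in TBCD, with 8 windows over 799 bases, and in CHCHD3 and MAN1B1, with 7 each. Of the very large genes, 6 of the 7 with any CAPRIN window had a deep intron window, against 13.2% of all genes in the list. GPC6, a heparan sulfate proteoglycan, was at 7.14 and 7.89 in its stronger window, PDE4D, a cAMP phosphodiesterase, at 5.08 and 6.18 with 1158 IP and 78 input reads, WWOX at 4.65 and 4.74, and DIAPH2 at 5.53 and 6.75. SR and hnRNP protein genes had 1 of 40, HNRNPM, and core spliceosome genes 0 of 43.

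By IP reads the CYTH1 window, in the gene of an exchange factor for ARF proteins, led the CAPRIN list (chr17:78762440-78762539, minus strand). It had 14080 IP and 18 input reads, 17.1% of the deep intron IP reads of the list, at 10.86 and 11.73. ETV5, NFIA, PRKCA and ITFG1 came next with 6.90%, 4.64%, 4.15% and 3.49%. DNAJC17 at 10.02 and 11.37, KIF2A at 10.09 and 10.97 and ENOX1 at 9.63 and 10.70 were also among the highest, with 774, 598 and 522 IP reads on 0 input reads each. DNAJC17, KIF2A and ENOX1 are named for their values.

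G3BP1 deep intron windows were fewer and more often in noncoding genes. Of the 186 windows 22.6% lay in long noncoding RNA genes and 75.3% in protein-coding genes, against 3.01% and 96.2% for CAPRIN. The largest by reads was in BTBD2 (chr19:1998553-1998650, minus strand), with 5441 IP reads on 1 input read, 20.9% of the deep intron IP reads of the list, at 11.78 and 12.83. FAM234B had 3874 IP reads but 2042 input reads, and was at 2.60 and 3.46. PTBP2, the neuronal relative of PTBP1, had 2 touching windows at means of 7.43 and 9.01, and HNRNPC 1 at 6.77. IARS2, which hosts miRNAs, reached 8.24, and DMD, the dystrophin gene and the only very large gene in this list, 5.26. CCDC200 had 8 windows over RefSeq snRNA genes at means of 1.25 to 2.82, from the set of the list with up to 3 replicates.

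The tRNA genes set G3BP1 apart by reads. RefSeq tRNA genes overlapped 12 G3BP1 deep intron windows, over 10 tRNA genes, which held 19.4% of the deep intron IP reads, with a median log2 enrichment of 7.73. CAPRIN had 6 such windows with 1.86% of the reads and a median of 4.55, and the 4 SNRNP200 lists had none. The strongest were the methionine tRNA gene TRM-CAT6-1 in FBXO31 (chr16:87383975-87384073) at 10.32 and 10.50, the arginine tRNA gene TRR-TCT3-2 in CMB9-60A24.1 at 9.68 and 10.72 with 1500 IP reads, and the lysine tRNA gene TRK-TTT5-1 in the same host at 9.11 and 11.14. VAC14, a scaffold of phosphoinositide synthesis, had 4 windows over glycine tRNA genes. tRNA genes have near-identical copies elsewhere in the genome, so reads may have been split among them. Copies of 5S rRNA lay under 4 G3BP1 and 5 CAPRIN windows, and copies of 7SL RNA under 1 and 4.

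The last comparison sets CAPRIN against G3BP1, whose deep intron windows overlapped in 39 positions, 5.10% of the CAPRIN and 21% of the G3BP1 set. Over all types the overlap was 10.7% and 55.8%. Of the shared windows, 32 had 2 replicate values in both lists. Limma called 10 of the 32 (31.3%), 4 higher and 6 lower in CAPRIN, where the share called over all 551 shared windows was 25%, with 9.8% higher and 15.2% lower. With differences centred on their median it called 72 of the 551 higher and 49 lower, against 54 and 84 without, and of the 32 it called 5 and 5. Replicates did not overlap and were higher in CAPRIN in 25% (25.6% of all windows) and lower in 31.3% (41.2% of all). The median difference was -0.11 over the 32 and -0.41 over all 551, on scales set separately for each list. At an unadjusted p under 0.05 there were 14 of 32 and 219 of 551. The share called lies near that of all shared windows.

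The named windows were far apart in both directions. FTO, an RNA demethylase gene, was at 9.62 and 11.56 for CAPRIN and 5.83 and 6.77 for G3BP1 (difference 4.29, SE 0.73, limma adjusted p = 0.00887). CYTH1 was at 10.86 and 11.73 against 6.63 and 7.64 (difference 4.16, SE 0.60, limma adjusted p = 0.00556). ZNF767P and ACACA, the gene of acetyl-CoA carboxylase, were higher in CAPRIN by 1.93 and 1.81 (limma adjusted p = 0.0462 for both). Neither was called with a variance trend (limma adjusted p = 0.101 and 0.0975) or with q under 0.05 in both lists (limma adjusted p = 0.0532 and 0.0552). On the other side, FBXO31 over its tRNA gene was at 3.32 and 4.09 for CAPRIN and 10.32 and 10.50 for G3BP1 (difference -6.70, SE 0.54, limma adjusted p = 0.000812). Windows over the tRNA genes of VAC14 were lower in CAPRIN by -3.52 and -3.01 (limma adjusted p = 0.00985 for both). PRKACB, KDM5A and FAM234B were lower as well, at -2.53, -2.33 and -1.75, with limma adjusted p of 0.0200, 0.0221 and 0.0494. PRKACB rested on 7 CAPRIN and 40 G3BP1 IP reads and KDM5A on 23 and 100, with 0 input reads in both lists. FAM234B was not called after centring (limma adjusted p = 0.117) or with q under 0.05 (limma adjusted p = 0.0592).

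Of the 5 tRNA windows in both lists, 3 were called, all lower in CAPRIN, where 15.2% of all 551 shared windows were called lower. These 3, in FBXO31 and VAC14, had 0 or 1 input reads for G3BP1 and 39, 12 and 8 for CAPRIN. The VAC14 window at -3.01 had 86 IP reads for CAPRIN and 52 for G3BP1. The other VAC14 window was at 5.15 and 5.17 for CAPRIN and 6.03 and 10.13 for G3BP1 (difference -2.92, limma adjusted p = 0.0936), and the tRNA window of ZNF767P differed by 0.54 (limma adjusted p = 0.538). Of the 13 tRNA windows in all, 7 were listed only for G3BP1 and 1 only for CAPRIN. HLTF and VPS13C, at 2.33 and 1.91, and UBE2D2 and PARD3, at -1.54 and -1.12, were not called.

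**Figure D5:**
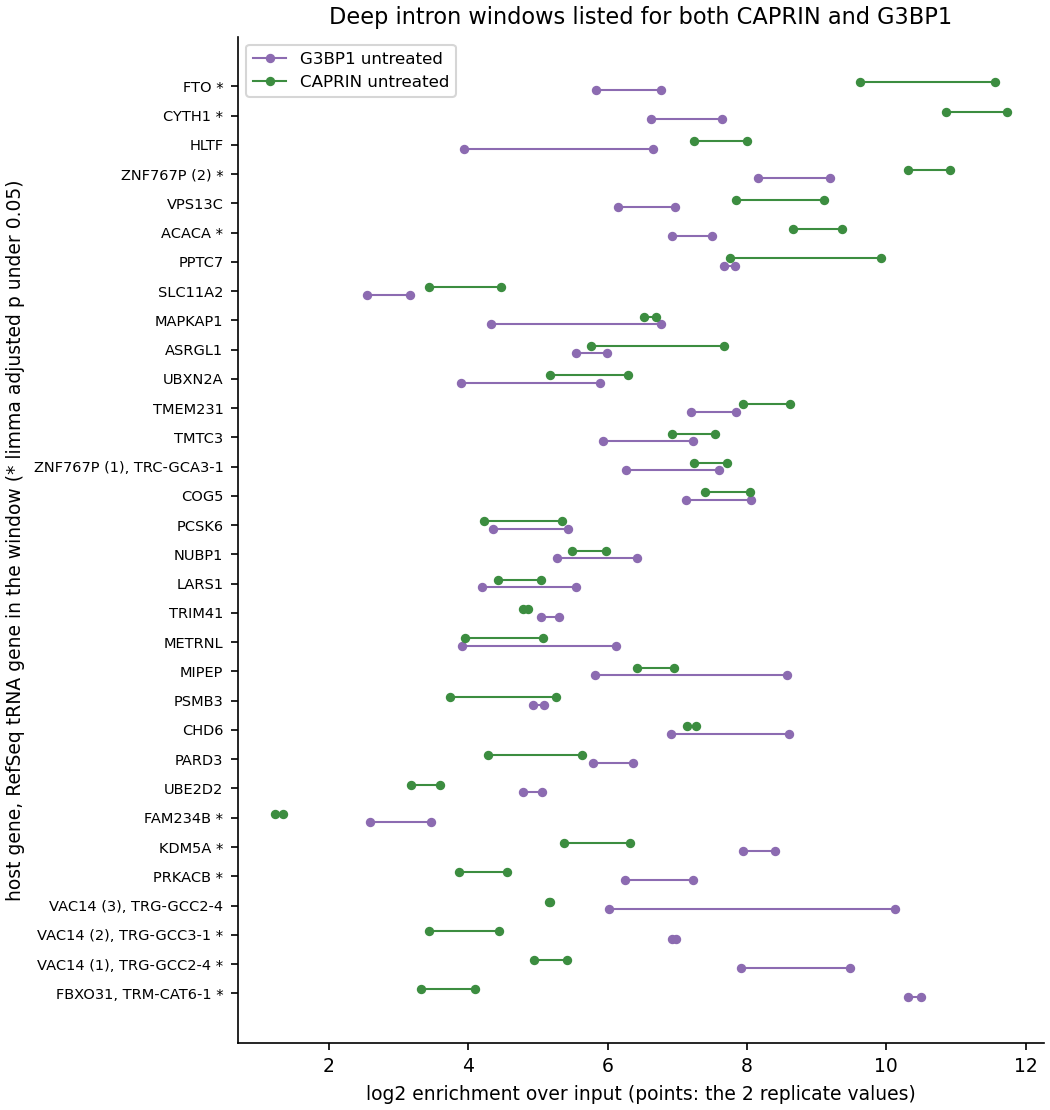
Replicate log2 enrichments of the 32 shared deep intron windows, 1 row per host gene with any tRNA gene in the window, in order of their difference. Lines join the 2 replicates of a protein, and a star marks the 10 windows called by limma. FTO and CYTH1 have the largest differences in favour of CAPRIN, and FBXO31, at -6.70, the largest in favour of G3BP1.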

How the data were processed

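The material was 24 eCLIP libraries from HEK293, in 12 groups of 2 by protein, fraction, treatment and library type, deposited as 1 list of enriched windows for each of 6 experiments. Per the submitters' processing notes, fastp 0.11.5 and STAR 2.7.6 were used, with hg38 as the build. The sources used here do not name the program that called the windows. The deposited lists have no header, and each column's content was inferred from its values. As deposited, the input and IP counts of a window are raw sums over the replicates. Each deposited log2 value gives IP against input, set against windows of the same GC class, and the lowest, mean and highest replicate are listed. For each window the authors list a highest and a lowest p-value and q-value over the replicates, with every q under 0.2. GC content was deposited as a fraction of the window's bases.

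The lowest and highest log2 value of a window called in 2 replicates are the replicate values themselves, without replicate numbers. The G3BP1 list holds 2 sets told apart by GC class, and only the set with up to 2 replicates entered enrichment levels and differences (140 of 186 deep intron windows). Windows were compared by limma's moderated two-sided test (limma 3.58.1, R 4.3.3) without centring, fitted over shared windows of all types, 2 replicate values against 2, with Benjamini-Hochberg adjusted p under 0.05. The procedure was tested on simulated data. Library totals were not used here, so no depth per sample is given, and read counts in listed windows limit the precision. Overlaps with miRNAs, tRNA genes, pseudogenes and promoters used RefSeq tables of GRCh38.p14; pseudogene entries over 3000 bases long were left out, and promoters on chromosome 8 were not searched. In promoter windows, the GC content of the RefSeq sequence equalled the deposited one within 0.0001 in 56 of 56, which checks the build.

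The set of windows, the gene lists and the comparisons were chosen with earlier results of these data known. Named for each list were the 10 genes with most deep intron windows, the 5 windows with the highest mean log2 enrichment and at least 20 IP reads, and the 5 longest runs of touching windows. For each comparison they were the 5 largest differences in each direction with at least 20 IP reads in both lists, at most 1 per gene, and for each gene list up to 4 members; some of these are not reported here. Windows leading by IP reads, over named RefSeq units, in 3 or more lists or called by limma were added after values were seen, as was UBE2D2. Some of the added windows had fewer than 20 IP reads in a list. Alternatives were a stricter q, lists of equal length, equal numbers of deep intron windows, weighting by IP reads, merged windows, read minimums, a variance trend, centring and 1 window per gene.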

Additional observations from a re-analysis of the deposited data

How the results depend on the processing

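The share of deep intron windows moved with the processing in every list. With q under 0.05 it was 1.79%, 1.51%, 1.11% and 7.15% in untreated and arsenic whole cells, the untreated cytoplasm and G3BP1. With lists of equal length, the 3023 windows of lowest q, the whole cell shares were 0.695% and 1.09%, the cytoplasmic ones 0.827% and 0.165%, and that of CAPRIN 8.96%, so untreated whole cells then lay below arsenic whole cells and the untreated cytoplasm. Weighted by IP reads it was 1.68%, 1.76%, 1.74%, 13% and 14.0% in whole cells, the untreated cytoplasm, CAPRIN and G3BP1, and the untreated cytoplasm then lay level with whole cells. With touching windows merged it was 2.31% and 1.94% in whole cells and 5.67% for CAPRIN. In windows of at least 20 IP and 10 input reads the share was 2.20%, 1.75%, 0.129%, 3.78% and 2.55% in whole cells, the untreated cytoplasm, CAPRIN and G3BP1. The causes of these shifts were not tested.

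Shared deep intron windows of the whole cell lists numbered 640 with q under 0.05. Those of the arsenic lists of both fractions numbered 1 with q under 0.05 and 0 with equal numbers of deep intron windows from both lists (20 each). With such equal numbers CAPRIN shared 24 with G3BP1 (186 each) and 26 with arsenic whole cells (764 each). These alternatives keep fewer windows by construction. Limma called 2 of the 3 CAPRIN and G3BP1 windows with at least 20 IP and 10 input reads, and 7 to 10 under each other alternative. It called 4 higher and 6 lower in CAPRIN, 5 and 5 with differences centred on their median, 2 and 6 with a variance trend and 2 and 5 with q under 0.05. In the 4 SNRNP200 comparisons it called 0 deep intron windows under every alternative that gave a value, and no window met the read minimums in untreated cytoplasm against whole cell.

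No paired analysis was possible because the deposited replicate values carry no replicate number, and leaving out each replicate in turn was not run for the same reason. The alternatives gave 48 values within the limits set for an unchanged result and 27 outside them. Many deep intron windows had 0 to 3 input reads, which limits the precision of their log2 enrichment.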
